A study of Homo sapiens with 24 samples.

Results

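The genes described here encode the proteins of the cytosolic ribosome. They were taken as the protein-coding symbols RPL or RPS with a number and an optional A, X or L, together with RPLP0, RPLP1, RPLP2 and RPSA. The rule found 81 genes among 62757 rows of the count table, 49 of the large subunit and 32 of the small subunit.

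The libraries came from embryoid body cultures of the human embryonic stem cell line HES3, which carries NKX2-5 GFP and NR2F2 mCherry reporters in every group. The line had been targeted with CRISPR-Cas9 at LHX2, ZNF503, ZNF711 or, as the control, TRAC, a T cell receptor gene. Each targeted line was differentiated for up to 14 days with Wnt modulation by an atrial protocol, with retinoic acid at day 4, or by a ventricular protocol without it. The labels mark these as AM and VM without spelling the letters out, and they are read here as atrial and ventricular. This gave 8 groups of 3 libraries, AM TRAC, AM LHX2, AM ZNF503, AM ZNF711, VM TRAC, VM LHX2, VM ZNF503 and VM ZNF711. Whether a targeted line was 1 clone or a pool, and whether replicates were separate cultures, is not given in the sources used here, so p-values measure the spread between these libraries. The labels name polyA RNA as the molecule and a ribosomal RNA depletion kit in the library protocol, so the way RNA was selected was not settled.

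A cytosolic ribosome holds 1 copy of nearly every ribosomal protein, and cells make these proteins in matched amounts. Their mRNAs are among the most abundant in growing cells. Most begin with a 5' terminal oligopyrimidine tract, a C followed by a run of C and T in the DNA, which places their translation under the mTOR pathway and the RNA-binding protein LARP1. A few members have paralogs with narrower expression, such as RPL3L of striated muscle and RPL10L of the testis.

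The start of transcription shows this shared element. RefSeq promoters (GRCh38.p14) were matched to 64 of the 81 genes. A C at the annotated start followed by at least 4 more C or T bases, read on the gene's strand, was found in 46 of these 64 genes (71.9%), in 4.99% of 27241 other genes and in 6 of 69 mitochondrial ribosomal protein genes (8.70%). The large subunit (28 of 39 genes) and the small subunit (18 of 25 genes) had nearly the same share. When the run could begin within 10 bases of the start, it was found in 57 of the 64 genes (89.1%) and in 38.3% of other genes. The lines below show 15 bases before the start and 15 from it, with the pyrimidine run in capitals, first for genes that lead a comparison, have a high level (RPL37A and RPL41) or form the P stalk (RPLP0, RPLP1, RPLP2 and RPL12), and last for 3 genes with no such run within 10 bases of the start. A match is a description of these letters and no measure of translation.
RPS18, chr6:33272060-33272089, plus strand: cgcgtcacttccgctCTCTCTTCCacagga
RPS21, chr20:62387088-62387117, plus strand: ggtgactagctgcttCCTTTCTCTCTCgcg
RPL35, chr9:124861943-124861972, minus strand: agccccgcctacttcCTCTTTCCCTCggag
RPL37A, chr2:216498829-216498858, plus strand: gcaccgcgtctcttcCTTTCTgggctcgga
RPL38, chr17:74203663-74203692, plus strand: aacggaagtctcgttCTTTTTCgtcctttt
RPL41, chr12:56116618-56116647, plus strand: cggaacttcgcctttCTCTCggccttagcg
RPLP0, chr12:120201097-120201126, minus strand: gcgcgggcgcgaggcCCTTCTCTCgccagg
RPLP1, chr15:69452803-69452832, plus strand: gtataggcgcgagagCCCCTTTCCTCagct
RPLP2, chr11:809952-809981, plus strand: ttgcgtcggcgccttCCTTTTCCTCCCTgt
RPL12, chr9:127451392-127451421, minus strand: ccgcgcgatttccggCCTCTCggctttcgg
RPL27, chr17:42998404-42998433, plus strand: ccggggtgaaaggttagcggaagtgtcctt
RPS27L, chr15:63157463-63157492, minus strand: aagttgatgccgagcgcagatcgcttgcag
RPS4X, chrX:72277234-72277263, minus strand: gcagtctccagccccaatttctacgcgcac

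Total counts ran from 2899786 to 7438010 per library. All 12 cardiomyocyte markers had counts in every group, and their summed level was 11830 to 42570 CPM (counts scaled to library size) per library, lowest in VM ZNF711. RNA of the targeted genes did not follow the labels in every case: ZNF503 RNA was higher in the libraries labelled ZNF503 (254 to 365 CPM against 103 to 122 CPM in AM TRAC, and 19.1 to 45.1 CPM against 8.79 to 16.2 CPM in VM TRAC), so these are called the libraries labelled ZNF503. LHX2 RNA was near the limit of detection in AM TRAC (0.540 to 2.36 CPM) and AM LHX2 (0.515 to 2.08 CPM), and ZNF711 RNA was 31.1 to 55.6 CPM in AM ZNF711 against 47.2 to 60.0 CPM in AM TRAC. An RNA level does not test an edit that leaves the transcript in place.

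The 81 genes took between 1.97% and 4.03% of all counts in a library, and AM LHX2 stood lowest. The 3 libraries of AM TRAC had 2.55%, 2.89% and 2.70% of their counts on these genes, and those of AM LHX2 had 1.97%, 2.12% and 2.21%. The other AM groups were spread more widely, with 2.64%, 3.35% and 2.80% in AM ZNF503, and AM ZNF711 held 2.22%, 3.10% and 3.08%. The 3 AM LHX2 libraries were the lowest of all 24, the nearest other library being AM ZNF711 replicate 1.
In the VM protocol, VM TRAC had 2.34%, 3.26% and 3.78%, VM LHX2 had 2.27%, 2.76% and 4.01%, and VM ZNF503 had 2.62%, 3.18% and 3.85%. VM ZNF711 had 3.31%, 4.02% and 4.03%. In every VM group replicate 1 was lowest and replicate 3 highest, and the 4 VM replicate 3 libraries, at 3.78% to 4.03%, lay above all 12 AM libraries.

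**Figure D1:**
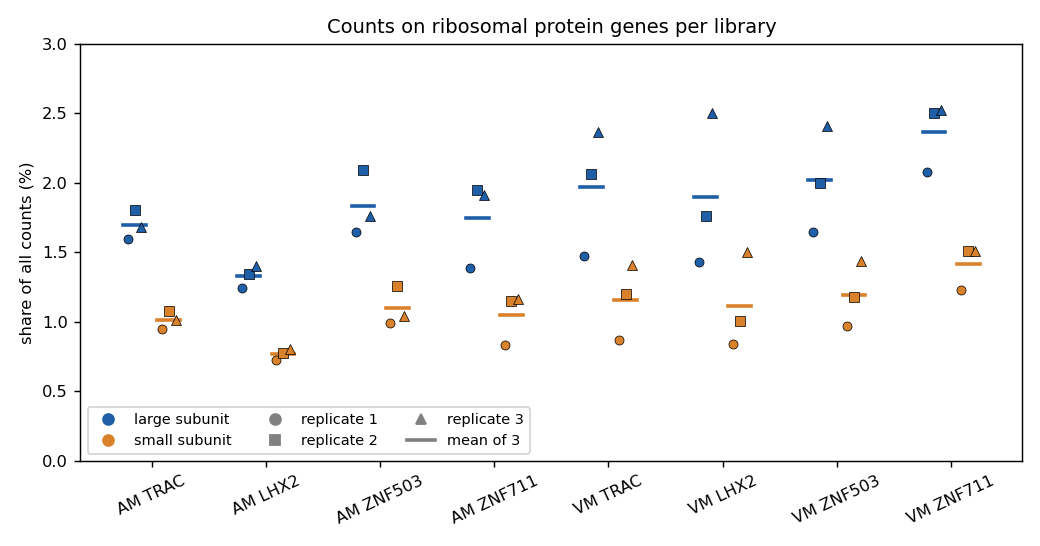
Share of all counts (%) on ribosomal protein genes in each of 24 libraries, by group, for the large subunit (blue) and the small subunit (orange). Symbols are replicates and bars are means of 3 libraries; AM LHX2 lies at the bottom, with 1.24% to 1.40% on the large subunit, and replicate 3 is highest in each VM group.

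The subunits largely kept step with each other. Large subunit genes took 1.24% to 2.52% of counts and small subunit genes 0.724% to 1.51%, and their ratio stayed between 1.64 and 1.75 in all 24 libraries. The ratio was 1.72, 1.73 and 1.74 in AM LHX2, above all other AM libraries (1.64 to 1.69), and 1.66 to 1.75 in VM. Mitochondrial ribosomal proteins, encoded by nuclear genes but built into a different ribosome, took 0.200% to 0.241% of counts. Their share did not span such a range as that of either subunit. Across the 24 libraries the median pairwise correlation of log2 CPM between tested members was 0.93, the same as between large and small subunit genes (0.93), against 0.19 between mitochondrial ribosomal protein genes. These correlations share library, scaling and read depth, and are given as a description with 24 points. The mitochondrial ribosomal protein genes had lower levels, with a median of 43.6 against 797 CPM per kilobase of coding sequence. Counting error therefore weighs more on their correlations, and a small constant was added to their CPM only. The members that followed the others least were RPS10 (r = -0.33), RPL36A (-0.30), RPL17 (0.30), RPS27L (0.52), RPL39L (0.56) and RPL22 (0.62), which were chosen after their values were seen. The first 3 had a mean of 16.4, 33.6 and 20.0 counts per library and RPL39L 29.8, so counting error weighs on them, while RPS27L and RPL22 had 227 and 330.

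**Figure D2:**
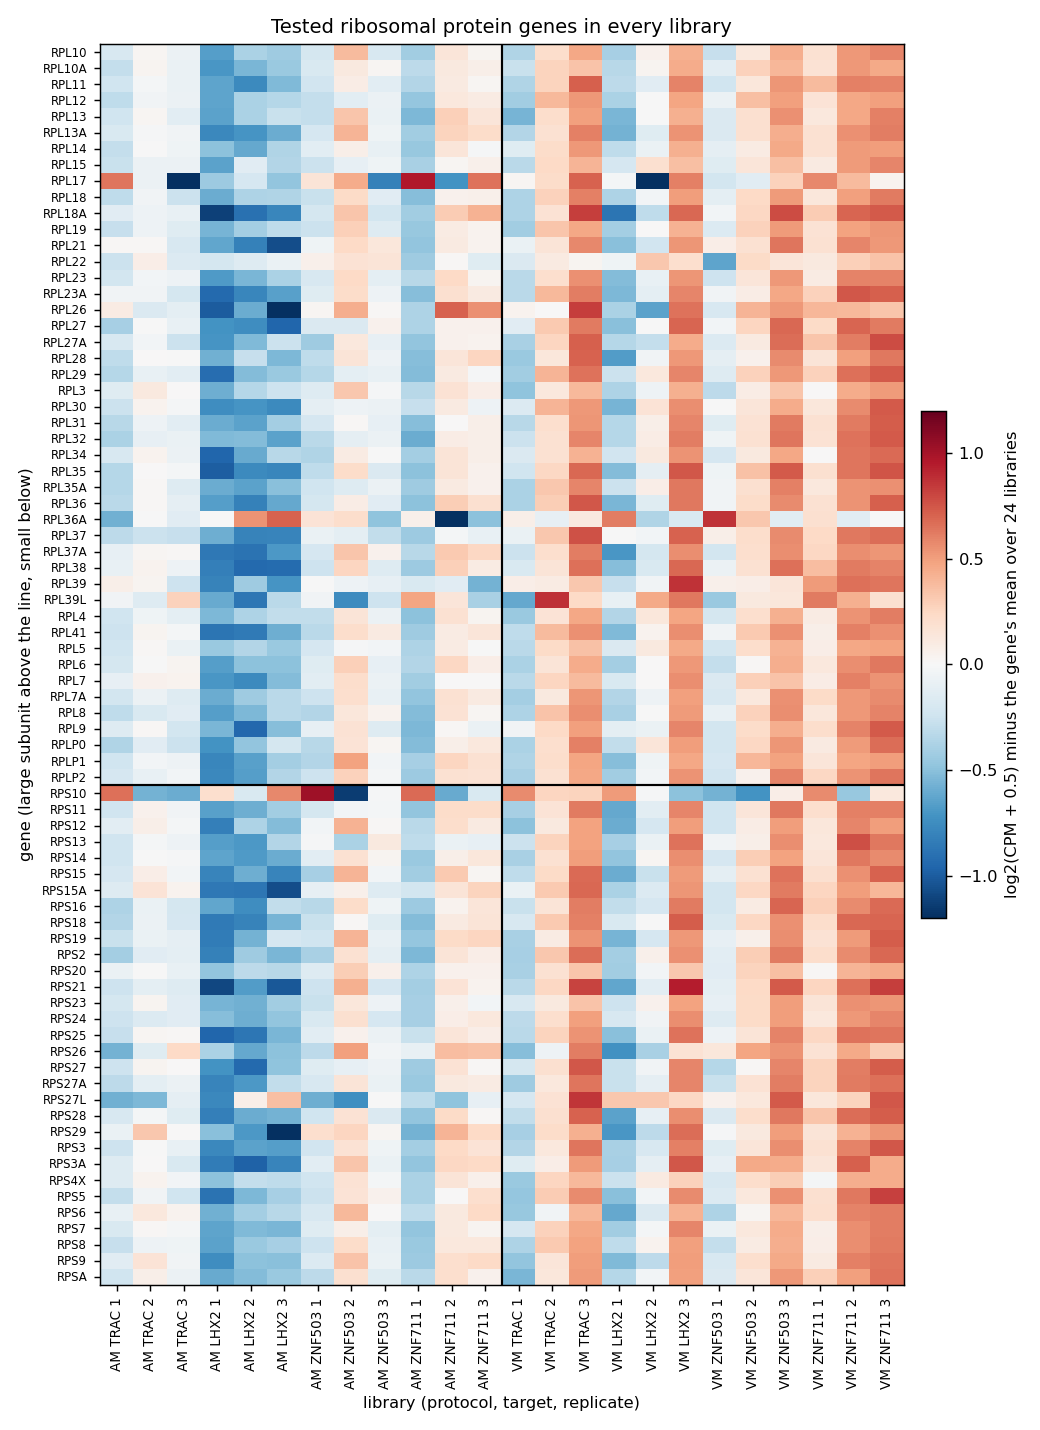
Deviation of each of 77 tested members (rows, large subunit above the line) from its own mean over 24 libraries (columns), as log2(CPM + 0.5), with colours capped at 1.2 either way. Nearly all rows change together from library to library, with AM LHX2 blue, VM replicate 3 and VM ZNF711 red, and RPS10, RPL17, RPL36A, RPL39L and RPS27L out of step.

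Levels within the set are compared per kilobase of coding sequence, since long mRNAs collect more reads. RPL41, the smallest ribosomal protein, was highest with a mean of 3794 CPM per kilobase over 24 libraries, followed by RPL37A (1799). RPS4X, the X-linked form of small subunit protein S4, led the small subunit (1341), and the medians were 838 CPM per kilobase for large and 686 for small subunit genes, against 43.6 for mitochondrial ribosomal protein genes and 20.1 for all tested genes with a coding length. RPS10 was lowest among the tested members (6.57 CPM per kilobase), next to RPL17 (7.17) and RPL36A (21.2). These 3 genes share exons with annotated readthrough genes in GENCODE 29 (RPS10-NUDT3, RPL17-C18orf32 and RPL36A-HNRNPH2), which had 0 counts in every library, and RPL24 was listed at 0 in all 24 libraries. How the authors' counting handled overlapping genes is not given in the sources used here, so the RPS10, RPL17 and RPL36A values are uncertain. RPL24 shares no exon base with another gene on either strand in GENCODE 29. Why it had 0 counts is not known, so its value is uncertain too. Of the 81 genes, 29 also overlap a gene on the opposite strand, among them RPL10 over 52.7% of its exon bases with DNASE1L1 and another gene, and whether strand was used in counting is not stated.

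Each paralog stood below its partner. RPL3L, the muscle paralog of RPL3, had 0 to 4 counts per library and was at 0 in 17 of 24, while RPL3 had 2985 to 12680 counts. RPL10L had 0 or 1 count, and 20 libraries were at 0. RPL39L, a paralog of the exit tunnel protein RPL39, averaged 38.6 CPM per kilobase against 263 for RPL39. RPS27L, which is known as a p53 target, averaged 179 CPM per kilobase against 859 for RPS27. RPL3L, RPL10L and RPL24 were among the members too low to test, and 77 members were tested, 46 of the large and 31 of the small subunit, in one edgeR quasi-likelihood fit with 17724 genes, and a gene is called at a Benjamini-Hochberg adjusted p below 0.05 over all of them.

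Ribosomal protein mRNAs were lower in AM than in VM when the 4 targets were averaged. In that comparison 62 of 77 members fell, 39 of the large and 23 of the small subunit, and none rose. Of all tested genes 17.6% were called lower. The fit treats all libraries of a protocol as independent, though libraries of the same number deviated together across the 4 targets. Its p-values for this mean may therefore be too small. The median log2 fold change was -0.44 for large and -0.43 for small subunit genes, against -0.01 for all tested genes, -0.14 for mitochondrial ribosomal protein genes and -0.07 for 2298 other genes with an mRNA under 1000 bases. Only RPS10 had a fitted value above 0 (0.08, adjusted p = 0.862). With the 4 VM replicate 3 libraries left out, 36 members fell, where 13.1% of all genes were called lower, and the medians were -0.26 and -0.24. In bulk cultures, fewer cells of a type rich in these mRNAs and less of the mRNA per cell cannot be told apart.

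**Figure D3:**
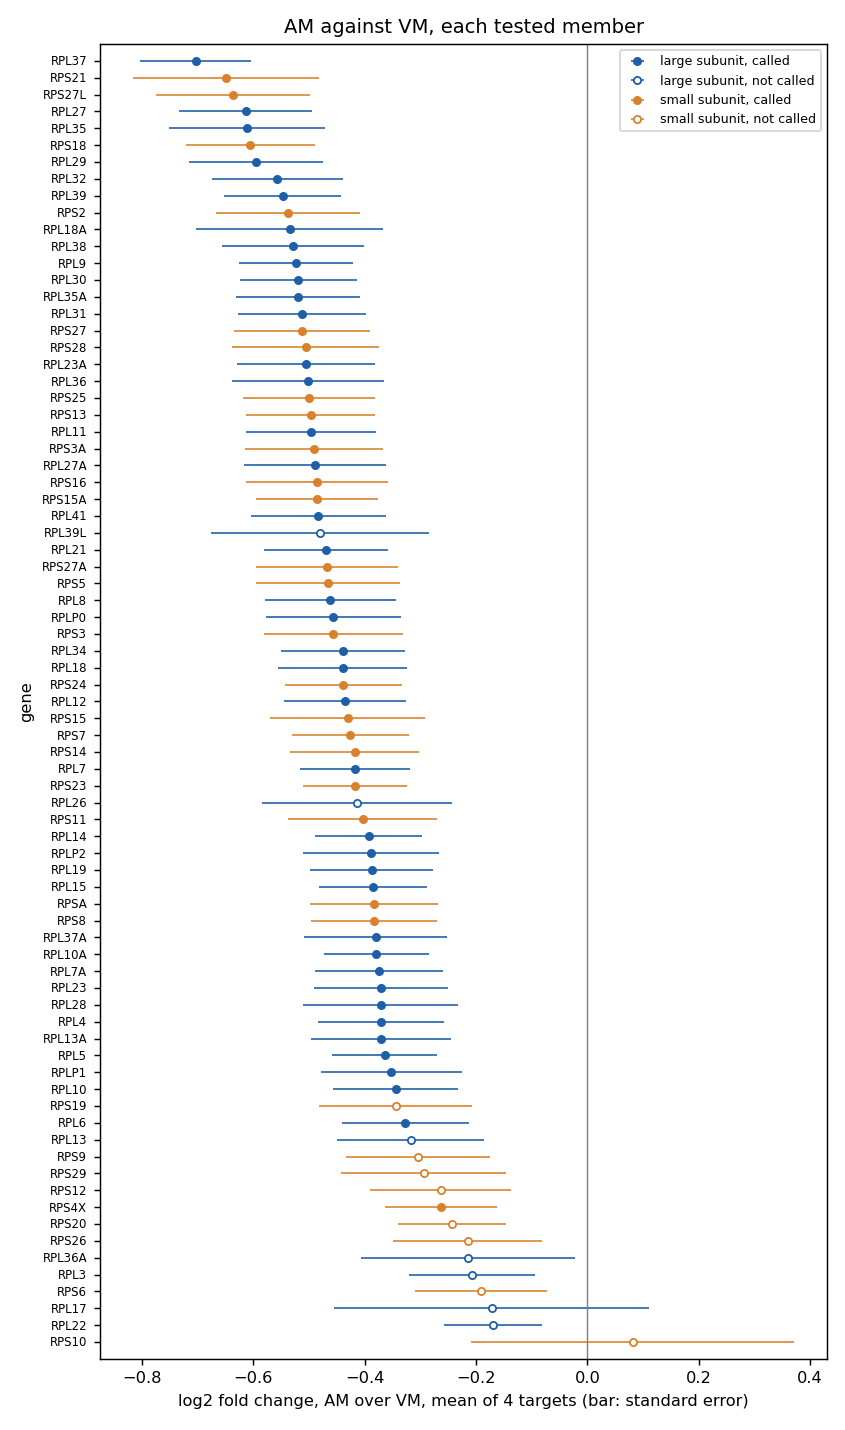
Fitted log2 fold change of AM over VM, averaged over the 4 targets, for each of 77 tested members, with standard errors; filled points were called and open points were not. The 62 called genes all lie below 0, from RPL37 at -0.70 to RPS4X at -0.26.

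RPL37, a large subunit protein, changed most. For AM, the CPM values of replicates 1 to 3 were 231, 240 and 238 with TRAC targeted, 191, 165 and 166 with LHX2, 272, 266 and 234 with the ZNF503 label and 213, 283 and 271 with ZNF711. For VM they were 272, 361 and 488 with TRAC, 288, 282 and 471 with LHX2, 302, 333 and 428 with the ZNF503 label and 339, 447 and 457 with ZNF711. Within each target every AM library lay below every VM library, while over all targets the highest AM library (283) passed the lowest VM library (272). The log2 fold change averaged over targets was -0.70 (SE 0.10, adjusted p = 3.98e-06).
Next came RPS21 (-0.65, SE 0.17, adjusted p = 0.00459) and RPS27L (-0.64, SE 0.14, adjusted p = 0.000842). RPS27L was 25.5 to 42.9 CPM in the AM libraries other than AM LHX2, where it was 24.9, 45.1 and 55.1, and 37.2 to 78.1 CPM in VM, so AM LHX2 was not its lowest group. RPL27 (-0.61), RPL35 (-0.61) and RPS18 (-0.61) completed the 6 largest. RPL27 and RPS27L have no pyrimidine run in the window printed above and RPS21, RPL35 and RPS18 do. RPL37 had no matched promoter, so its start was not examined. The median over tested members with a run at the start (-0.44, 45 genes) was close to that over matched members without one (-0.38, 17 genes).

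By place in the ribosome, the median log2 fold changes were alike: -0.41 for the P stalk, -0.43 for the proteins that join 5S rRNA, -0.41 for the exit tunnel and -0.46 for the mRNA entry and exit, beside -0.43 for all members. All 4 proteins of the P stalk, which recruits and activates the elongation factors, fell: RPLP0 by 0.46, RPLP1 by 0.35, RPLP2 by 0.39 and RPL12 by 0.43 on the log2 scale. RPLP0 had 635, 742 and 679 CPM in AM TRAC against 625, 935 and 1238 in VM TRAC, so these groups overlapped, and 496, 586 and 705 in AM LHX2 against 664, 899 and 1150 in VM LHX2, which overlapped too. With VM replicate 3 left out, only RPL12 of the 4 was called. Both proteins that join 5S rRNA, RPL5 and RPL11, which also bind MDM2, fell (-0.36 and -0.50), and both were called without VM replicate 3.
At the peptide exit tunnel and its rim 6 of 9 members fell, RPL39 (-0.55) and RPL35 among them, and RPL17, RPL22 and RPL26 were not called (-0.17, -0.17 and -0.41); without VM replicate 3 RPL17 turned to 0.03. At the mRNA entry and exit of the small subunit 5 of 6 fell, RPS2 (-0.54) most, and RPS26, which lies at the mRNA exit, was not called (-0.21, adjusted p = 0.235). Of 8 tested genes that are mutated in Diamond-Blackfan anaemia, an inherited failure of red cell production, 5 fell, while RPS19, the first found, was not called (-0.34, adjusted p = 0.0568). RPL38 (-0.53), RPS27 (-0.51), RPS27A, a ubiquitin fusion (-0.47), RPSA (-0.38), RPL10 (-0.34) and RPS4X (-0.26) fell. Without VM replicate 3 RPL38 (-0.30) and RPS27 (-0.27) were still called, while RPS27A (-0.24, adjusted p = 0.0700), RPSA (-0.18, adjusted p = 0.150), RPL10 (-0.18, adjusted p = 0.215) and RPS4X (-0.15, adjusted p = 0.289) were not.
RPL3 (-0.21, adjusted p = 0.167) and RPS6, the substrate of S6 kinase (-0.19, adjusted p = 0.232), were not called. RPS6 had 509, 588 and 557 CPM in AM TRAC and 394, 522 and 711 in VM TRAC, with AM inside the range of VM, and its fold change turned to 0.02 without VM replicate 3. RPL39L was not called (-0.48, adjusted p = 0.0592).

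Replicates with the same number deviated together across groups, so a fit with the replicate number as a block is given where it changes a count by more than 1.5 times. For the mean over targets it called 69 members lower (20.9% of genes), a like count, RPL3 (adjusted p = 0.0110) and RPS19 (adjusted p = 0.00246) now included. In the fit without VM replicate 3 these 2 genes were near 0 and not called, RPL3 at -0.03 (adjusted p = 0.843) and RPS19 at -0.10 (adjusted p = 0.548). Within targets the block mattered more. In AM TRAC against VM TRAC 1 member fell, RPL37 (-0.66, SE 0.20, adjusted p = 0.0307), and 5.12% of all genes were called lower; with the block 7 fell, where 9.2% of all genes did, led by RPS27L (-0.71, adjusted p = 0.00296).
In AM LHX2 against VM LHX2 26 members fell and none rose, where 3.88% of genes were called lower, and 64 fell with the block (7.75%). In the libraries labelled ZNF503 no member was called by edgeR, where 8.86% of genes were called in either direction. DESeq2 called 0, and 2 members had an unadjusted p under 0.05, a count given without the share of all genes. With the block 5 members fell (7.06%), RPS27L (-0.75, adjusted p = 0.00242), RPL32 (-0.42, adjusted p = 0.0329) and RPL12 (-0.41, adjusted p = 0.0133) most. In AM ZNF711 against VM ZNF711 4 fell (6.42%), and 57 fell with the block (12%).
With the block fitted apart in AM and VM, 31 members fell for TRAC (11.4% of genes), 69 for LHX2 (9.78%) and 18 for ZNF503 (9.28%). In the same fit 67 fell for ZNF711 (14.3%) and 72 for the mean over targets (22.3%). This fit takes the spread between replicate numbers within a protocol out of the error. Its AM to VM calls therefore leave out a spread that bears on a difference between protocols. Every AM library lay below every VM library for 2 members in TRAC (11.7% of genes), 42 in LHX2 (11.4%), 6 in ZNF503 (10.8%) and 40 in ZNF711 (16.4%). Whether these counts differ between targets was not tested.
The medians for large and small subunit genes were -0.32 and -0.30 for TRAC, -0.68 and -0.67 for LHX2, -0.25 and -0.24 for ZNF503 and -0.50 and -0.49 for ZNF711.

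**Figure D4:**
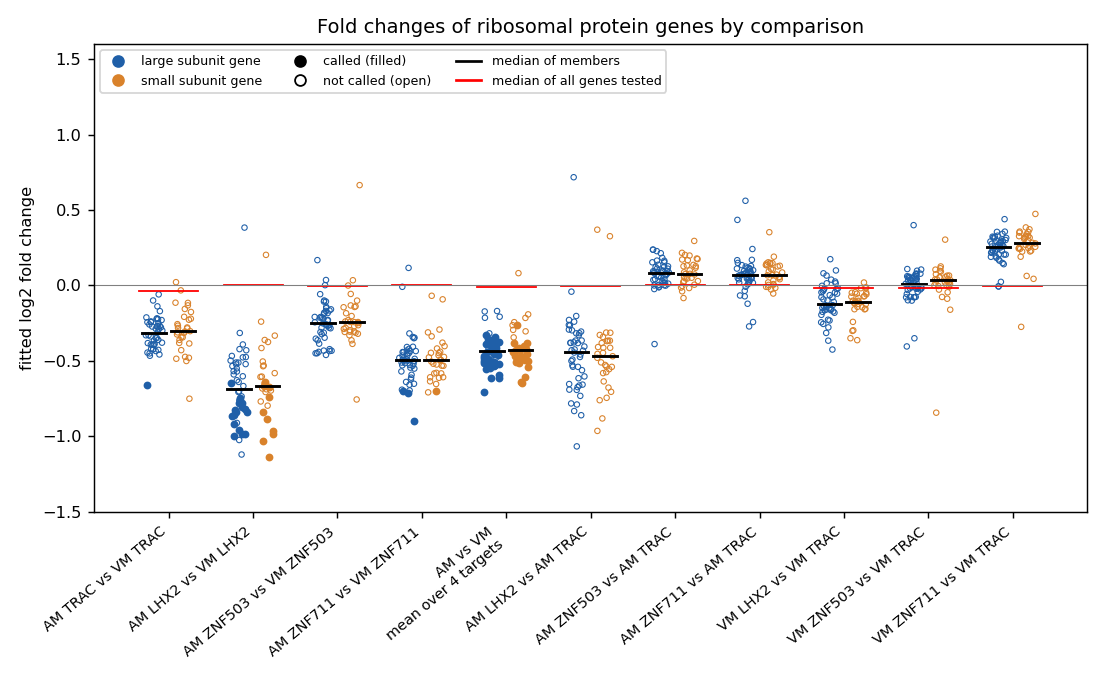
Fitted log2 fold change of each tested member in 11 comparisons, large subunit in blue and small in orange; filled points were called, black bars are member medians and red bars the median of all genes tested. Member medians lie below the red bar in all 5 AM to VM comparisons and in AM LHX2 against AM TRAC, where none was called, and above it in VM ZNF711 against VM TRAC.

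These comparisons rest in different degree on VM replicate 3. Comparing libraries of the same number, AM TRAC over VM TRAC had a median log2 ratio for large subunit genes of 0.09 in replicate 1, with 56 of 77 members higher in AM, -0.24 in replicate 2 and -0.63 in replicate 3, with 76 of 77 lower. The direction for TRAC therefore differed between numbers. For LHX2 it was -0.27, -0.59 and -1.02, and for ZNF711 it was -0.63, -0.40 and -0.53, with at least 73 of 77 members lower in each. For ZNF503 it was -0.10, -0.05 and -0.55.
With VM replicate 3 of all targets left out, 5 members fell for LHX2 (3.66% of genes), 8 for ZNF711 (5.87%) and none for TRAC or ZNF503. Without VM LHX2 replicate 3 alone, 1 member was called lower in AM LHX2 against VM LHX2, and the large subunit median was -0.37. In this comparison 45 were called without VM LHX2 replicate 1, and 9, 7 and 12 without AM LHX2 replicate 1, 2 or 3. In AM ZNF711 against VM ZNF711 1 was called without AM replicate 1, VM replicate 2 or VM replicate 3, and 10 without VM replicate 1. In AM TRAC against VM TRAC no member was called when AM TRAC replicate 1, 2 or 3 or VM TRAC replicate 2 or 3 was left out, and 3 were without VM TRAC replicate 1. For the fits that left out 1 library the share of all genes called is not given. A change in these counts may follow a change in calls over all genes.

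The largest called changes in AM LHX2 against VM LHX2 were in RPS21, RPS3A, RPL37, RPS15A, RPL38 and RPL35. RPS21 had 56.9, 76.2 and 59.7 CPM in AM LHX2 and 79.0, 112 and 234 in VM LHX2 (-1.14, SE 0.34, adjusted p = 0.0422). RPS3A had 144, 131 and 149 CPM against 196, 239 and 432 (-1.03, SE 0.25, adjusted p = 0.00996), and RPS15A 37.4, 37.1 and 32.4 against 52.3, 60.8 and 98.5 (-0.99, SE 0.23, adjusted p = 0.00572). In each gene the AM libraries were below all VM libraries, and VM LHX2 replicate 3 was highest. Without VM replicate 3 of all targets RPL37 (-0.70, adjusted p = 0.00233) and RPS15A (-0.66, adjusted p = 0.0215) were still called, while RPS21 (-0.56, adjusted p = 0.147), RPS3A (-0.61, adjusted p = 0.0678), RPL38 (-0.55, adjusted p = 0.0576) and RPL35 (-0.53, adjusted p = 0.129) were not. In AM ZNF711 against VM ZNF711 the 4 called members were RPL39 (-0.90), RPL9 (-0.71), RPS13 (-0.70) and RPL37 (-0.70). RPL39, whose product lines the exit tunnel, had 34.0, 35.1 and 25.9 CPM in AM ZNF711 against 55.4, 61.5 and 60.8 CPM with VM, without overlap.

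Within the AM protocol, targeting of LHX2 went with lower ribosomal protein mRNA in most members, though none passed the test. The median log2 fold change of AM LHX2 against AM TRAC was -0.44 for large and -0.47 for small subunit genes, 74 of 77 were below 0, and the 3 libraries of AM LHX2 lay below all 3 of AM TRAC for 65 of 77 members, against 9.72% of all tested genes, and above them for 1, RPL36A, against 9.29%. No gene of 17724 was called by edgeR (0%). An unadjusted p under 0.05 was found for 33 members, and DESeq2 called 1 member. The shares of all genes for these last counts are not given, so they do not set the members apart from other genes. With the replicate block 12 members fell, where 0.677% of genes were called lower, and with the block fitted apart in AM and VM 54 fell (1.88%). By replicate number the large subunit median was -0.43, -0.53 and -0.35, and at least 71 of 77 members were lower in each.
RPS15A had the lowest p, with 61.2, 76.5 and 70.2 CPM in AM TRAC and 37.4, 37.1 and 32.4 in AM LHX2 (-0.96, SE 0.23, adjusted p = 0.233; with the block -0.96, adjusted p = 0.00687). RPL37A had 444, 481 and 478 CPM in AM TRAC and 262, 256 and 294 in AM LHX2 (with the block -0.79, adjusted p = 0.0329), and RPL35 had 201, 256 and 250 against 128, 150 and 147 (with the block -0.73, adjusted p = 0.0432). In all 3 genes the AM LHX2 libraries were below every AM TRAC library. RPL38 had a similar gap, 178, 196 and 182 CPM against 108, 99.4 and 99.6, and was not called with the block (adjusted p = 0.0713).
RPL36A and RPS27L went the other way in fitted value. RPL36A was 4.14, 6.38 and 5.81 CPM in AM TRAC and 6.40, 9.53 and 10.8 in AM LHX2 (0.72, adjusted p = 0.684), and RPS27L had a fold change of 0.37 (adjusted p = 0.788). AM LHX2 also held the 2 shallowest libraries, with 2899786 and 3686010 counts, while replicate 3 had 5093067. Its summed endoderm markers, 462 to 1385 CPM, overlapped those of AM TRAC, 388 to 1480 CPM, and all 6 smooth muscle markers had fitted values below 0, with a sum of 678 to 873 CPM against 1011 to 1623 CPM. Fibroblast and mesenchymal markers summed to 4122 to 5561 CPM against 5691 to 7003 CPM, and mitochondrial transcripts took 1.89% to 2.29% of counts against 2.31% to 3.15%, also without overlap. The part of depth, mitochondrial share or cell type markers in the result was not tested.

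Targeting of ZNF711 in the VM protocol went with higher fitted values. The medians of VM ZNF711 against VM TRAC were 0.26 for large and 0.28 for small subunit genes, and 74 of 77 were above 0. No member was called, where 0.0169% of genes were. DESeq2 called 0, and 1 member had an unadjusted p under 0.05, a count given without the share of all genes. The libraries did not overlap, with VM ZNF711 higher, for 2 members (5.41% of genes). The block called 0 and the block fitted apart in AM and VM called 31 higher, where 4.76% of genes were. By replicate number the large subunit medians were 0.51, 0.33 and 0.05, so replicate 3 differed little.
The lowest p was that of RPL39, with 40.9, 41.5 and 48.5 CPM in VM TRAC and 55.4, 61.5 and 60.8 in VM ZNF711, without overlap (0.44, SE 0.21, adjusted p = 0.514). All 12 cardiomyocyte markers had fitted values below 0 in this comparison and all 12 endoderm and hepatic markers above 0, as had all 12 cell cycle genes. Pluripotency markers summed to 383 to 474 CPM in VM ZNF711 against 184 to 321 CPM in VM TRAC, and mitochondrial transcripts took 2.15% to 2.49% of counts against 2.93% to 3.69%, both without overlap. Their part in the result was not tested.

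In the other 4 comparisons with TRAC, no gene of 17724 was called by edgeR (0%), and no member had an unadjusted p under 0.05. DESeq2 and the block fits called 0 members in each. The medians of large and small subunit genes were 0.08 and 0.08 for AM ZNF503, 0.07 and 0.07 for AM ZNF711, -0.12 and -0.11 for VM LHX2 and 0.01 and 0.04 for VM ZNF503. The lowest p in each direction belonged to RPL22 (0.24) and RPL39L (-0.39) in AM ZNF503, RPS26 (0.35) and RPL39 (-0.24) in AM ZNF711, RPL22 (0.17) and RPS15A (-0.30) in VM LHX2, and RPS26 (0.30) and RPS10 (-0.84) in VM ZNF503, and each adjusted p was above 0.99. The VM ZNF503 libraries lay below those of VM TRAC for 1 member, RPS10, against 2.29% of genes. The comparisons of a protocol share their TRAC libraries.

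Whether a target's effect differed between the protocols was tested directly. For LHX2 the median difference of AM LHX2 against AM TRAC over VM LHX2 against VM TRAC was -0.36 for large and -0.38 for small subunit genes, and no member and no gene was called (0%), with 4 members at an unadjusted p under 0.05 and 0 called by DESeq2. The block fitted apart in AM and VM called 1, RPL7 (-0.68, SE 0.14, adjusted p = 0.0492), where 0.0282% of genes were called lower. For ZNF711 the medians were -0.20 and -0.21, no member was called (0.00564% of genes), with 1 at an unadjusted p under 0.05 and 0 by DESeq2, and the same block called RPS6 (-0.52, SE 0.14, adjusted p = 0.0308), where 1.08% of genes were called lower. For ZNF503 the medians were 0.06 and 0.05, with no gene called (0%), no member at an unadjusted p under 0.05 and 0 called by DESeq2. The shares of all genes at an unadjusted p under 0.05 are not given, so these counts do not set the members apart. A difference of the LHX2 effect between AM and VM was thus not shown for the members at this number of libraries.

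Genes that work with the ribosomal proteins moved in part with them in AM against VM averaged over targets. Of all tested genes 17.6% were called lower and 16.8% higher in this comparison, and 13.1% lower without VM replicate 3. Of 15 tested translation factors whose mRNAs also begin with a pyrimidine tract, 12 fell and none rose, and 8 fell without VM replicate 3. EEF1A1, which brings aminoacyl-tRNA to the ribosome, had 4075, 4833 and 4570 CPM in AM TRAC against 3712, 5730 and 6638 in VM TRAC, with AM inside the VM range (-0.37 over targets, SE 0.11, adjusted p = 0.0134). EIF4B, a cofactor of the helicase eIF4A, had 434, 495 and 494 CPM in AM TRAC and 515, 706 and 816 in VM TRAC, without overlap (-0.60, SE 0.09, adjusted p = 4.22e-06).
Of 11 hosts of small nucleolar RNAs 7 fell and none rose, and 6 fell without VM replicate 3. GAS5, a host with its own pyrimidine tract, had 84.8, 80.1 and 83.7 CPM in AM TRAC and 137, 136 and 175 in VM TRAC (-0.84, SE 0.10, adjusted p = 2.15e-07). Of 28 ribosome biogenesis genes 9 fell, among them NPM1 (-0.52) and GNL3 (-0.52), both of the nucleolus, and 2 rose, UBTF (0.47), a factor of rRNA gene transcription, and DKC1 (0.22), so this list did not move one way.
Of 14 regulators of ribosomal protein synthesis 3 fell, a share near the 17.6% of all genes. MYCN, a transcription factor that drives ribosome production, had 16.8, 15.2 and 22.7 CPM in AM TRAC and 30.0, 46.4 and 52.4 in VM TRAC (-1.30, SE 0.13, adjusted p = 1.08e-08). MYC (-1.03, adjusted p = 0.00553) and LARP1 (-0.24, adjusted p = 0.00137) were the others, MYC was not called without VM replicate 3, and the genes of mTOR complex 1 on the list, MTOR and RPTOR, were not called. Of 76 mitochondrial ribosomal protein genes 17 fell and 1 rose, a share for the lower calls near the 17.6% of all genes.

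Markers of other cells moved with the same libraries. The summed level of 12 endoderm and hepatic markers, all of them with counts in every group, was 278 to 2599 CPM in AM and 2097 to 37130 CPM in VM, and the 4 VM replicate 3 libraries (12880 to 37130 CPM) together with VM ZNF711 replicates 1 and 2 (14680 and 25930 CPM) were the 6 highest. Of these markers 8 fell and 1 rose in AM against VM, and 8 fell and 2 rose without VM replicate 3, beside 17.6% of all genes called lower and 16.8% called higher with all libraries. In the same 6 libraries cardiomyocyte markers summed to 11830 to 21090 CPM, against 37360 to 42570 CPM in the other 6 VM libraries, and pluripotency markers to 321 to 474 CPM against 184 to 250 CPM. The 5 libraries with the largest shares of counts on ribosomal protein genes were all among these 6. Within AM the order differed: AM ZNF503 replicate 2 had the highest share of an AM library (3.35%) and the lowest marker sum (278 CPM).
Cell cycle genes summed to 564 to 758 CPM in VM ZNF711 and 310 to 582 CPM in the other groups. In AM against VM 6 of 12 fell, where 17.6% of all genes were called lower. Fibroblast and mesenchymal markers summed to 4122 to 7291 CPM in AM and 1703 to 4902 CPM in VM. Of these markers 4 of 8 were higher in AM, where 16.8% of all genes were called higher, and none was lower. Within VM they were higher in the 6 libraries with the largest endoderm sums (3274 to 4902 CPM) than in the other 6 (1703 to 2458 CPM). The part of these cells in the ribosomal protein differences was not tested.

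**Figure D5:**
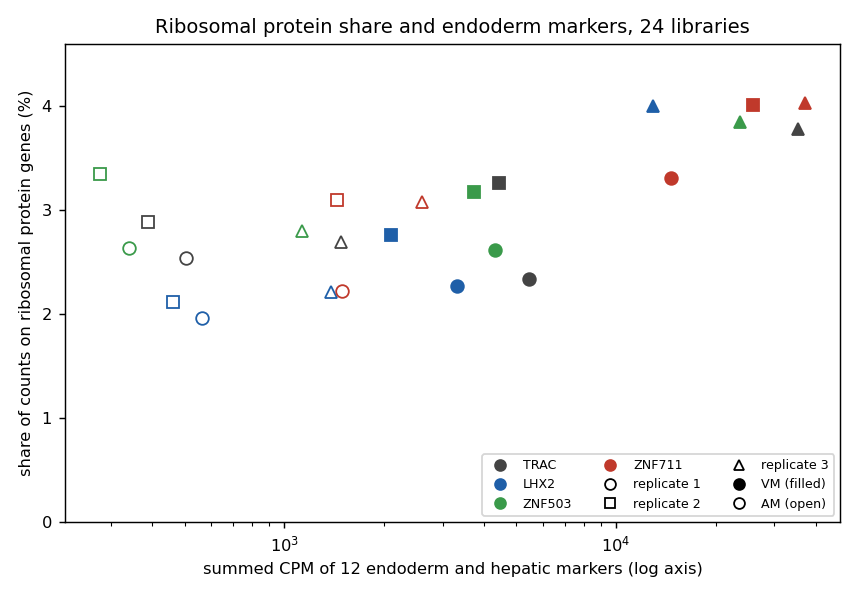
Share of counts on ribosomal protein genes (%) against the summed CPM of 12 endoderm and hepatic markers (log axis) in 24 libraries, coloured by target, with AM open, VM filled and symbols for replicates. The VM replicate 3 libraries and VM ZNF711 lie to the right, with shares of 3.31% to 4.03%, while AM ZNF503 replicate 2 has 3.35% at the lowest marker sum.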

How the data were processed

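The authors deposited 1 table of raw read counts per Ensembl gene for 24 libraries; STAR and GRCh38 are named in the submitters' processing notes, and the counting tool is not given in the sources used here. Genes were matched to GENCODE 29. Total counts were 2899786 to 7438010, so that 3 counts correspond to 0.403 to 1.03 CPM. Counts were fitted in edgeR 4.0.16 (R 4.3.3) with TMM scaling, filterByExpr and 1 mean per group over all 24 libraries, by a robust quasi-likelihood test, and p-values were adjusted (Benjamini-Hochberg) over 17724 genes. CPM use TMM-scaled library sizes. Alternatives were DESeq2 1.42.0, other scalings and filters, a replicate block and leaving out libraries. Same-numbered libraries deviated together (30 correlations of 0.12 to 0.79 over 11423 genes), with the pairing taken from the labels' replicate numbers. The fit was tested on simulated data for AM TRAC against VM TRAC. It recovered 38 of 100 genes changed by 1 log2 unit and 73 of 100 changed by 2, with 6 false calls. With no gene changed it made 0 false calls. A gene that was not called may therefore still have changed. Named genes are the 6 largest called per direction, the lowest p where none was called, the 3 largest called with the block, the extremes of level and a list of 20 genes of known role. The members and lists were chosen with earlier results of these data known. Some items are not reported here.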

Additional observations from a re-analysis of the deposited data

How the results depend on the processing

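Counts of called members changed with the model of the spread. Where the text gives no share of all genes for a count, the count may follow the number of calls over all genes. The same holds for counts at an unadjusted p. Member medians kept their sign under all settings run in the AM to VM comparisons, AM LHX2 against AM TRAC, VM ZNF711 against VM TRAC and the LHX2 test of differing effects. Leaving out 1 library turned them in the other comparisons, for large subunit genes to -0.03 in AM ZNF503 and AM ZNF711, from -0.38 to 0.11 in VM LHX2 and from -0.18 to 0.23 in VM ZNF503 against TRAC, and from -0.13 to 0.27 in the ZNF503 test of differing effects; in that of ZNF711 small subunit genes reached 0.02. In the order AM against VM for TRAC, LHX2, ZNF503 and ZNF711, then AM LHX2 against AM TRAC, the replicate block called 7, 64, 5, 57 and 12 members, the block with gene length correction 2, 58, 2, 52 and 6, the block fitted apart in AM and VM 31, 69, 18, 67 and 54, and no filter on low counts 2, 60, 1, 35 and 17. In VM ZNF711 against VM TRAC the last 2 block fits called 3 and 31, and the block fitted apart called 1 member in the LHX2 and 1 in the ZNF711 test of differing effects; the pairing changed no other count by over 1.5 times. Fitting only the groups compared called 0 for TRAC, 34 for ZNF711 and 32 for AM LHX2 against AM TRAC. DESeq2 called 12 for ZNF711 and 1 for AM LHX2 against AM TRAC, and scaling to library size alone called 7 for ZNF711. Leaving out VM replicate 3 of all targets, chosen after seeing the data, called 0 for TRAC, 5 for LHX2 (large subunit median -0.36), 8 for ZNF711 and 36 for the mean over targets. Leaving out 1 library gave 0 to 3 calls for TRAC, 1 to 45 for LHX2 (large subunit median -0.88 to -0.37), 0 to 1 for ZNF503 and 1 to 10 for ZNF711. The pyrimidine run was found in 89.1% of members when allowed within 10 bases. Over all 77 members, leaving out VM replicate 3 turned the sign of 11 in TRAC, 3 in LHX2, 15 in ZNF503, 1 in ZNF711 and 2 in the mean over targets (RPS6, and RPL17 at 0.03). Among values of genes named by rule, signs turned under some setting for RPS6 in the mean over targets (0.016 without VM replicate 3), RPS10 in the mean (-0.021 with the block fitted apart, and -0.12 to 0.19 when 1 library was left out, below 0 without replicate 1 of AM TRAC, AM ZNF503 or AM ZNF711) and in ZNF503 (-0.14 to 1.09, below 0 without AM ZNF503 replicate 1), and RPL36A in the ZNF503 test of differing effects (-0.40 to 0.15, above 0 without AM ZNF503 replicate 3 or VM ZNF503 replicate 1). The cause was not tested. RPS10 had a mean of 16.4 counts per library.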
